A study of Homo sapiens with 4 samples.

Results

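The regions described here are the promoter peaks of acetylated lysine 27 of histone H3 (H3K27ac) that were listed in the ovarian cancer cell line OVCAR-3 and in none of 3 other cancer lines. A member is an OVCAR-3 peak that shares no base with any peak of the COLO-205, DU-145 or SKOV-3 lists and whose summit, its position of highest signal, lies within 1 kb of the start of a protein-coding transcript. Chromosomes 3, 19, X and Y and a dense 1 Mb stretch of chromosome 1 were left out by the rule. It found 2333 members among 14089 OVCAR-3 promoter peaks in the regions kept, or 16.6% (95% exact Clopper-Pearson interval 15.9 to 17.2, counting error only). These were taken from 76093 OVCAR-3 peaks and from 251138 peaks in all 4 lists. The peaks were chosen by whether they overlap, so their count, their strength and the absence of overlap are a description and carry no test.

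The study used the marks to ask whether non-coding mutations in cancer cell lines lie in active regulatory DNA. Chromatin was immunoprecipitated with the antibody ab4729 against H3K27ac in cultured cells, and each line gave 1 library, so no difference between lines has a replicate check. OVCAR-3 and SKOV-3 are ovarian cancer lines, grown in RPMI 1640 and in McCoy's 5a medium. DU-145 is a prostate cancer line grown in Eagle minimal essential medium, and COLO-205 is a colon cancer line grown in RPMI, and all media held FBS (foetal bovine serum). Line, tissue of origin and medium differ together between most pairs of lines, and with 1 library per line these cannot be told apart.

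H3K27ac is added by the acetyltransferases p300 and CBP to nucleosomes beside active promoters and enhancers, and it is removed by histone deacetylases. At an active promoter it sits on the nucleosomes on either side of the start, while the start itself is often depleted of nucleosomes. Most housekeeping genes start in CpG islands, which are GC-rich stretches that keep their CpG dinucleotides, whereas many tissue-restricted genes start in CpG-poor DNA.

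The sequences of 6 starts are shown because these genes carried strong members at a gene that had no peak at any start in the other lists, and they differ in base composition. Each is the 150 bases before the start on the gene's own strand, 5′ to 3′, from the GRCh37 assembly (hg19). Genes whose start lay outside the peak or whose stretch held an annotated exon were passed over. Capitals mark the letters of 17 promoter motifs searched on both strands.
IGSF9: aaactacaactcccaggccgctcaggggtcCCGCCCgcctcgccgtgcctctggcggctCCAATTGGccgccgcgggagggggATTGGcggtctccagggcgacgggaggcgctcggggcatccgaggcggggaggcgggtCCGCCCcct
KCTD14: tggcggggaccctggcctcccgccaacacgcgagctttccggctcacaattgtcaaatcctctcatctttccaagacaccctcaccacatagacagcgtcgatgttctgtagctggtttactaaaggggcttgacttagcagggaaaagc
ESRRG: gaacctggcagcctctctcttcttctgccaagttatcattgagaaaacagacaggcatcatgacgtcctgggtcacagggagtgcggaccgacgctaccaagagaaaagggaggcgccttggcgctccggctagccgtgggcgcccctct
PUM3: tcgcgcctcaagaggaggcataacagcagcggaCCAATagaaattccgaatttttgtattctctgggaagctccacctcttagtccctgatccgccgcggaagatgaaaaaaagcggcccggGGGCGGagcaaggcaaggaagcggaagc
BEST1: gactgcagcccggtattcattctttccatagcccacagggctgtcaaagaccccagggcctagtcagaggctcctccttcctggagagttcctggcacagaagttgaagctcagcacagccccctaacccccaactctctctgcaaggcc
INHBB: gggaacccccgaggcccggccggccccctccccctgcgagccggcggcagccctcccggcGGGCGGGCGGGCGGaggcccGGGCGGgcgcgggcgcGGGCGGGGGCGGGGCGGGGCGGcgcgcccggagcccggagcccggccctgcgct

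These stretches are chr1:159915404-159915553 on the minus strand for IGSF9, chr11:77757238-77757387 on the minus strand for KCTD14 and chr1:217263149-217263298 on the minus strand for ESRRG. The others are chr9:2844096-2844245 on the minus strand for PUM3, chr11:61717385-61717534 on the plus strand for BEST1 and chr2:121103562-121103711 on the plus strand for INHBB. The stretch before INHBB was 91.3% G and C with 27 CpG dinucleotides, and its capitals are 8 GC box matches (GGGCGG), some of them overlapping. The stretch before BEST1 was 58.0% G and C and held 1 CpG dinucleotide. The IGSF9 stretch held 3 CCAAT matches, of which 2 overlap on opposite strands, and 2 GC boxes. PUM3 held 1 of each. In stretches of the same length before all 64873 distinct starts kept, 41.4% held a GC box and 21.9% a CCAAT box, so these letters are common. None of the 17 motifs was found in the KCTD14, ESRRG and BEST1 stretches, which says only that these letters are not there.

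The members fell into 3 sets by what the other lists held at the same gene, where a start counts as marked in a list when a peak reaches within 1 kb of it. The first set, unmarked-gene peaks, lies at genes with no marked start in the 3 other lists. It held 761 members (32.6%, interval 30.7 to 34.6). The second set, other-start peaks, lies at genes that another list marked only at a different start, and held 561 members (24.0%, interval 22.3 to 25.8). The third set, flanked-start peaks, lies at a start that another list marked as well, beside the OVCAR-3 peak but without overlapping it, and held 1011 members (43.3%, interval 41.3 to 45.4). The order of the 3 sets rested on how peaks were called and joined. With the same number of strongest peaks in every list, the unmarked-gene set was the largest instead, at 66.5% of members, and with a −log10 q of at least 10 in every list it held 49.0%. When each peak of another line was extended by 350 bp, the unmarked-gene set was again the largest, at 43.6%, and the flanked-start set the smallest. Merging peaks less than 350 bp apart put the unmarked-gene set at 43.7%. In the flanked-start set, DU-145 marked the start at 754 members, COLO-205 marked it at 621, SKOV-3 marked it at 329, and all 3 lines did so at 219.

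**Figure D1:**
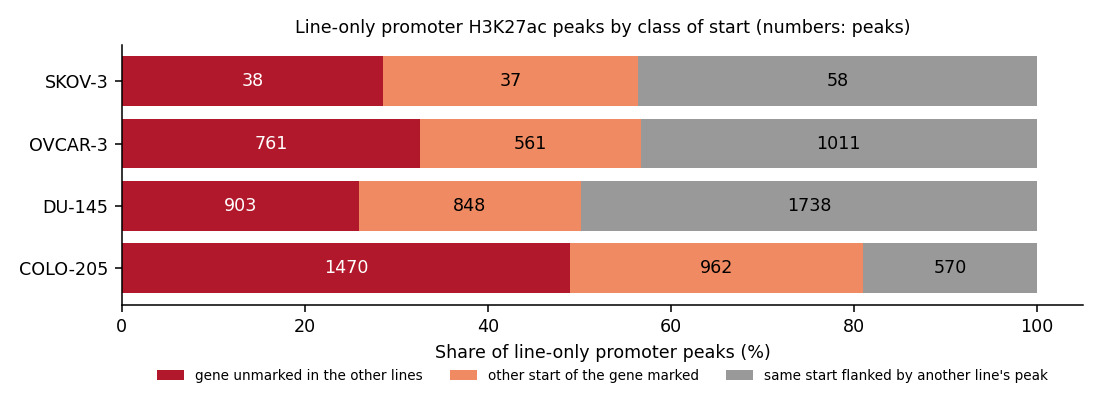
Share of line-only promoter peaks (x axis, percent) in each of the 4 lines (y axis) that lay at a gene unmarked in the other lines (red), at a gene marked elsewhere at another start (orange) or at a start flanked by another line's peak (grey), with the number of peaks on each bar. The unmarked-gene share was 32.6% in OVCAR-3, 49.0% in COLO-205, 25.9% in DU-145 and 28.6% in SKOV-3.

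By the same rule, COLO-205 had 3002 line-only promoter peaks of 11529 (26.0%), DU-145 had 3489 of 14779 (23.6%) and SKOV-3 had 133 of 6151 (2.16%). OVCAR-3 at 16.6% lay below COLO-205 and DU-145. The regions left out took more from the OVCAR-3 list, of which 58353 of 76093 peaks were kept, than from COLO-205 (79705 of 85576). Chromosome 13, where COLO-205 held 12078 peaks and the other lists 147 to 353, was kept. What this did to the shares was not tested. Away from starts, 29440 of 44264 OVCAR-3 peaks (66.5%) had no overlap, against 84.9% in COLO-205 and 74.7% in DU-145. Promoter peaks were therefore shared more often than distal peaks in each of these lines. The SKOV-3 list was short, with 14001 peaks against 75468 to 85576 in the others, and held 65 peaks on chromosome 7 where the others held 1717 to 2586. A gene without a SKOV-3 peak was therefore not shown to lack the mark in SKOV-3, above all on chromosome 7. The depth computed from the lists was about 22400000 tags for SKOV-3 and 29800000 to 36000000 for the others.

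OVCAR-3 was checked against marker genes. Of 15 markers of the Müllerian lineage and of serous ovarian carcinoma, 14 had a marked start in OVCAR-3, while SKOV-3 marked 6, COLO-205 marked 7 and DU-145 marked 8. The exception was ESR1, the estrogen receptor alpha gene, which was marked in SKOV-3 alone. All 6 epithelial markers were marked in OVCAR-3, as were 2 of 9 stromal markers (COL1A1 and ACTA2) and 1 of 4 prostate markers (HOXB13). None of 5 colon and 6 leukocyte markers was, nor were the endothelial markers CDH5, VWF and KDR. The other endothelial marker listed, PECAM1, had no start in the annotation used and was not measured. Most of the Müllerian markers were not members, and those marked in OVCAR-3, except CLDN3, were also marked in another line. PAX8, the lineage factor of Müllerian epithelium, reached a −log10 q (the peak caller's significance at the summit within its own library) of 256 in OVCAR-3, while SKOV-3 had 27.2, DU-145 22.3 and COLO-205 10.6. EMX2, a homeobox gene of the developing reproductive tract, reached 270 in OVCAR-3 and 5.51 in COLO-205. The rule asks for an absence of overlap and so left out starts that differed this widely in strength.

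The members were weak compared with the other OVCAR-3 promoter peaks. Their median −log10 q was 11.4, their median fold enrichment over local background 4.69 and their median width 297 bp. Promoter peaks with an overlap in at least one list (n = 11756) had medians of 32.7, 6.43 and 554 bp. The 3884 promoter peaks with an overlap in all 3 lists had 68.3, 9.49 and 849.5 bp. The 3 sets of members were close to each other, with median −log10 q of 12.5, 10.3 and 11.3 in the order above. At the summit the median member held 33 tags over a local background of 6.55 tags. The range was wide, from 13 to 310 tags. Most members were thus low, narrow peaks, with a small number of tall ones.

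**Figure D2:**
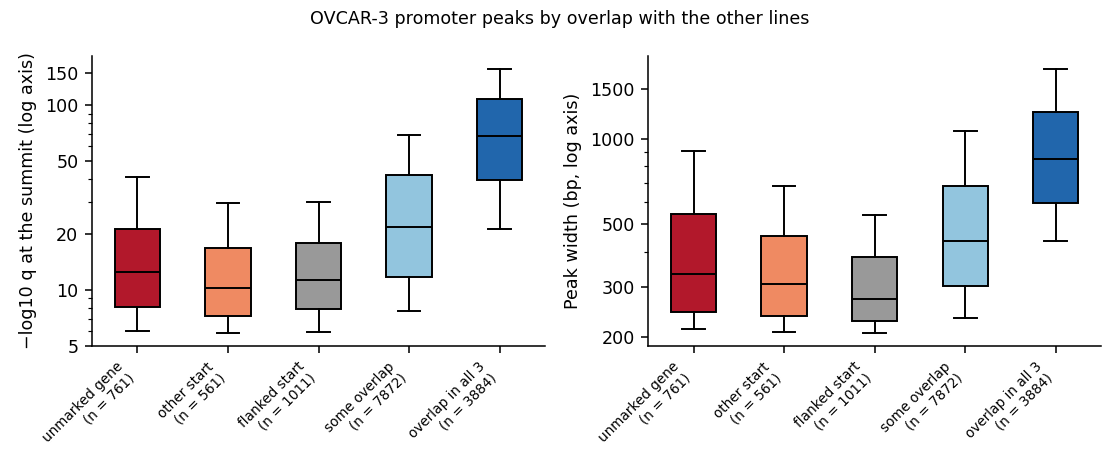
Peak significance (left, −log10 q on a log axis) and width (right, bp on a log axis) of OVCAR-3 promoter peaks in the 3 sets of members and in peaks with an overlap in some or all of the other lists. Boxes span the quartiles with the median as a line and whiskers the 10th to 90th percentile. The 3 sets of members have medians of 10.3 to 12.5 on the left axis, below the 68.3 of peaks with an overlap in all 3 lists.

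The distance to the nearest peak of another list followed the sets. The median was 14926 bp for unmarked-gene peaks, 3683 bp for other-start peaks and 303 bp for flanked-start peaks, and 130 members lay over 100 kb from any such peak. The summit was downstream of the start at 61.9% of unmarked-gene peaks and 46.6% of flanked-start peaks. The peak covered the start at 41.3% and 19.4% of them. Flanked-start peaks were thus mostly side peaks next to a start. At the limits of the rule, the members farthest from a start belonged to RARG (1000 bp), KCTD14 (999 bp) and ASS1 (997 bp), and the nearest peaks left out to DLX1, PHB1 and QRICH2 (each 1 to 3 bp beyond 1 kb). The closest neighbours of another list left 2 bases between them and members at SAMD10, DUS1L and PDXDC1, while peaks at SPSB1, ADORA1 and ROGDI were left out for overlaps of 4, 6 and 6 bases. The lowest −log10 q of a member was 3.10, at TLX1 and at IPO4.

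The members lay within 1 kb of starts of 1830 genes, 11.2% of the 16365 protein-coding genes in the regions kept. The unmarked-gene peaks lay at 572 of them, or 3.50%. The tallest was at SPON1, which encodes the secreted matrix protein spondin 1 (F-spondin). Its peak at chr11:13982559-13986638 covered the start and 4080 bp, the widest member. It held 310 tags over a background of 7.20, enriched 37.9-fold, and its −log10 q was 372. The nearest peak of SKOV-3 lay 20379 bp away, that of COLO-205 177020 bp and that of DU-145 291685 bp. SPON1 had the highest tag number, enrichment and −log10 q of all members. After it came BHLHE41 (chr12:26277677-26279836), a basic helix-loop-helix repressor of the circadian clock, with 230 tags and a −log10 q of 185. IGSF9 (chr1:159914796-159915905), an immunoglobulin superfamily adhesion gene, held 216 tags with a −log10 q of 164.

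**Figure D3:**
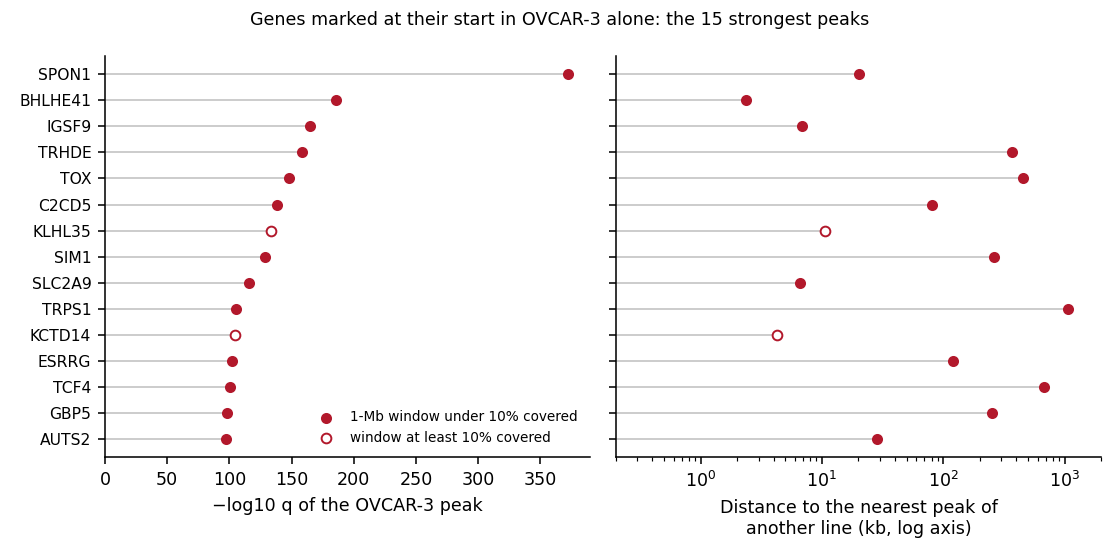
The 15 unmarked-gene peaks with the highest −log10 q (left axis) and the distance from each to the nearest peak of another line (right, kb on a log axis), by gene. Open circles are genes in 1 Mb windows at least 10% covered by OVCAR-3 peaks. SPON1 stands at 372 and the next gene at 185, and TRPS1 lies farthest from any other line's peak, at 1069 kb.

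Several of the strongest genes encode transcription factors and lie far from the marks of the other lines. TRPS1 (chr8:116679611-116680980), a GATA-type zinc finger repressor, had a −log10 q of 105 and its nearest peak of another line 1068559 bp away. TCF4 (chr18:53254712-53255757), a class I basic helix-loop-helix factor, had 101 and 676443 bp, with 91 tags over a background of 2.63. TOX (chr8:60029819-60032787), an HMG-box factor known from T cell development, had 148 and 457247 bp. These genes stood in regions where the other lists held nothing nearby. SIM1 (chr6:100911529-100912761), a bHLH-PAS factor of the hypothalamus and kidney, had 128 and 259694 bp. ESRRG (chr1:217262899-217263291), an orphan nuclear receptor, had 102 and 119523 bp, and SOX11 (chr2:5830896-5832399), a neural and embryonic SOX factor, 88.9 and 99765 bp.

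Among the strongest genes that are not transcription factors, TRHDE (chr12:72665011-72668208) encodes the ectoenzyme that degrades thyrotropin-releasing hormone. It had a −log10 q of 158 at 365652 bp from any peak of another line. SLC2A9 (chr4:10054576-10055944) encodes a urate transporter, and its gene held 5 members, with −log10 q from 6.36 to 116. GBP5 (chr1:89738869-89740016), an interferon-induced guanylate-binding protein gene, had 97.7 at 249821 bp, and its neighbour GBP4 also held a member, at 18.9. Both lay in CpG-poor DNA. AUTS2 (chr7:70158740-70160761), a gene of neural development, held 5 members with −log10 q from 5.26 to 97.1. HOXA2 (chr7:27141488-27142148) reached 94.0. Both AUTS2 and HOXA2 lie on chromosome 7, where the SKOV-3 list was nearly empty.

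Others of the 25 encode proteins made in most cells. C2CD5 (138), a C2-domain protein of vesicle traffic, INTS4 (93.4), a subunit of the Integrator complex, PUM3 (71.2), a Pumilio-related RNA-binding protein of the nucleolus, TM7SF3 (71.5) and TMEM150A (83.0) had a peak at a start in OVCAR-3 and none in the other lists, by −log10 q. KLHL35 (134), KCTD14 (105), AARD (94.5) and DIRAS2 (79.4) were also among the 25. INTS4, KLHL35 and KCTD14 lie in 2 windows of chromosome 11 in which OVCAR-3 peaks cover 39.4% and 45.5% of all bases.

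Peak density was therefore set beside the members. In 30 windows of 1 Mb that held members and were at least 10% covered by OVCAR-3 peaks lay 384 members (16.5%). There 40.0% of OVCAR-3 promoter peaks were members, against 14.8% elsewhere. Of the unmarked-gene peaks, 80 lay in such windows and 681 did not. The 3 densest were neighbours on chromosome 11. OVCAR-3 peaks covered 51.6% of chr11:76000001-77000000, with 10 members, 45.5% of chr11:77000001-78000000, with 17, and 39.4% of chr11:75000001-76000000, with 26. In the last of these, peaks covered 0.257 to 2.12% in the other lines. The window chr1:1000001-2000000 held the most members, 44, at 20.9% in OVCAR-3 and 8.89% in COLO-205. Below the 10% limit, chr12:27000001-28000000, the window of TM7SF3, was covered to 8.36% in OVCAR-3 and 0.169 to 0.518% in the others. By chromosome, the member share was highest on chromosome 11 (25.1%) and chromosome 1 (23.0%) and lowest on chromosome 13 (4.23%, 8 members). On chromosome 13 the COLO-205 list held 12078 peaks, against 147 to 353 in the other lists, which leaves an OVCAR-3 peak there more to overlap. The part of these densities in the members was not tested.

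Gene groups were read against the 3.50% of all genes that had unmarked-gene peaks. Of 74 measured genes of motile cilia, 9 did (12.2%, interval 5.71 to 21.8). They were CFAP73, SPAG17, CFAP57, SPAG16, SPEF2, FOXJ1, TEKT2, MNS1 and RSPH4A. The CFAP57 peak was nearest to a start of its neighbour EBNA1BP2 and also lay within 1 kb of a CFAP57 start, so the gene it marks cannot be told apart. FOXJ1 is the master factor of motile ciliogenesis, and ciliated cells line the fallopian tube. Its peak (chr17:74137582-74137816) had a −log10 q of 13.8, with 51 tags over a background of 12.5, in a window 13.6% covered. SPAG17, a central-pair protein of the axoneme, had 29.1 with its nearest other peak 254685 bp away, and CFAP73, an axonemal dynein-associated protein, 29.9. The cilia peaks were all modest, from 4.56 to 29.9. By the same count, 7 of 74 (9.46%) had unmarked-gene peaks in DU-145 and 6 (8.11%) in COLO-205, beside 4.32% and 6.32% of all genes. An OVCAR-3 member of any set lay at 12 of the 74 (16.2%, interval 8.67 to 26.6, which holds the 11.2% of all genes).

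**Figure D4:**
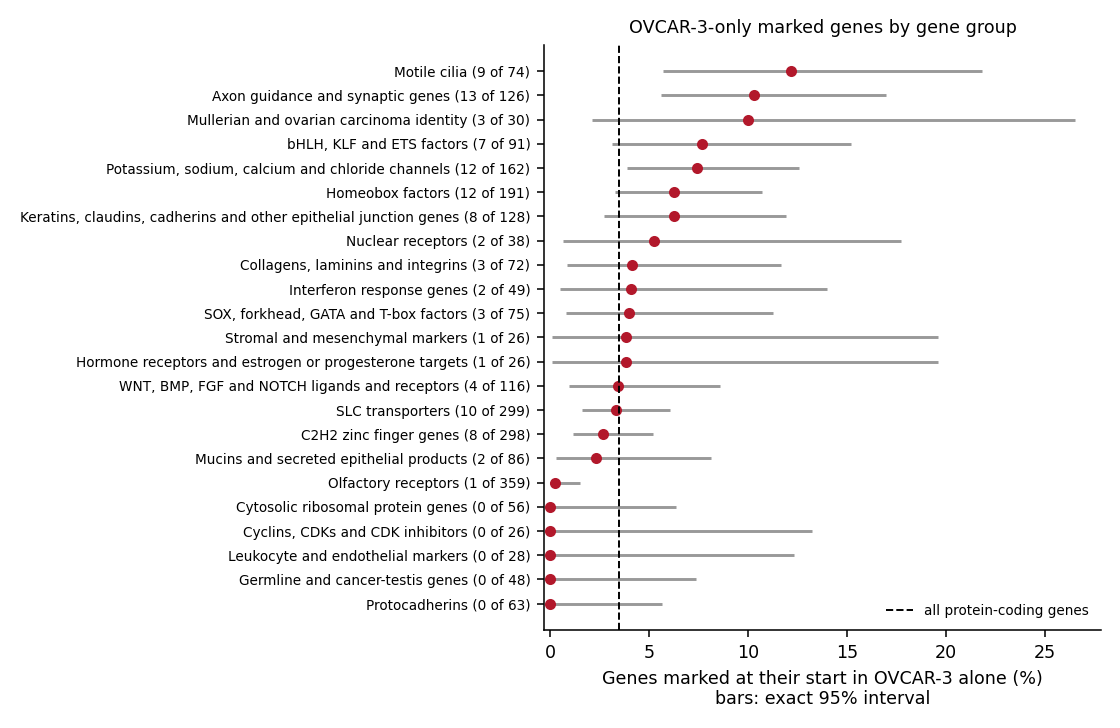
Share of the measured genes in each of 23 gene groups (y axis, with counts) that had a member peak and no marked start in the other lines (x axis, percent). Bars are exact 95% intervals for counting error, and the dashed line is the 3.50% of all protein-coding genes. Motile cilia genes lie at 12.2% and protocadherins at 0.

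Of 30 measured genes of Müllerian and ovarian carcinoma identity, 9 had a member of any set (30.0%, interval 14.7 to 49.4, beside 11.2% of all genes). Unmarked-gene peaks lay at 3 of the 30 (interval 2.11 to 26.5%, which holds the 3.50% of all genes). Those 3 were SPON1, LYPD1 (17.3) and CLDN3, a tight junction claudin (14.4, on chromosome 7). MEIS1, a TALE homeobox factor, had a member with a −log10 q of 123 whose nearest DU-145 peak was 122 bp away, and SKOV-3 marked another of its starts at 18.2. WT1, the Wilms tumour factor used as a marker of serous carcinoma, had a member at 16.3, at chr11:32452159-32453472. Its strongest OVCAR-3 promoter peak (124) was not a member, and COLO-205 marked a WT1 start at 9.86. FOLR1, the folate receptor alpha gene, had its strongest member at 15.2, 946 bp downstream of the start. In COLO-205, 6 of the 30 genes had line-only promoter peaks (beside 12.8% of all genes), and in DU-145, 3 did (beside 17.8%).

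Of 191 homeobox factors, 12 had unmarked-gene peaks (6.28%), led by HOXA2. Others among them were ZFHX4 (27.3), DLX1 (26.8), HOXD11 (18.7), DLX2 (17.3), GSC (11.3), HOXA6 (9.06), HOXB13 (8.28), ALX1 and ISL1 (6.34 each) and NKX6-3 (5.14). MEOX1 (74.0) and PAX6 (64.7) had flanked-start peaks. The share in COLO-205 was 37 of 191 (19.4%) and in DU-145 14 (7.33%). The OVCAR-3 share was the lowest of these 3, as was its share over all genes (3.50%, beside 6.32% and 4.32%). Of 91 genes whose symbols matched a pattern for bHLH, KLF and ETS factors, 7 had unmarked-gene peaks (7.69%), which were BHLHE41, TCF4, HEY2, EHF, TCF7L1, HES5 and ATOH8. The pattern took in every TCF-numbered symbol, so that genes of other families are among the 91, and TCF7L1 is one of these, an HMG-box factor of the TCF/LEF family.

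Axon guidance and synaptic genes held 13 of 126 (10.3%, interval 5.61 to 17.0). UNC5C, a netrin receptor, had a peak of 2660 bp (chr4:96468539-96471198) with a −log10 q of 56.9 that lay 353501 bp from any peak of another line. SEMA5A, a semaphorin, had 47.7 and SEMA4A 27.4. The other 10 had −log10 q from 5.00 to 20.4. Ion channel genes held 12 of 162 (7.41%). BEST1, a chloride channel gene (65.3, chr11:61717240-61718075), and CACNG4, a calcium channel subunit gene (50.1), led them. SCNN1A, the epithelial sodium channel alpha gene, had an other-start peak at 47.8. The shares of the 2 groups were 16.7% and 19.1% in COLO-205 and 7.94% and 4.32% in DU-145, beside 6.32% and 4.32% of all genes.

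Epithelial junction genes held 8 of 128 (6.25%), where COLO-205 had 16 (12.5%) and DU-145 2 (1.56%). RAB25, a small GTPase of epithelial membrane recycling known to be raised in ovarian cancer, led the 8 at 49.7 (chr1:156030096-156031288), followed by GRHL3 (26.8), a grainyhead factor of epithelia. CLDN6, a claudin of early embryonic and some ovarian carcinoma cells, had an other-start peak at 53.9, within 1 kb of a TNFRSF12A start as well, while its strongest OVCAR-3 promoter peak reached 141 and every other line marked one of its starts (19.4 to 70.9). Secreted epithelial products held 2 of 86 (2.33%). These were SLPI, the secretory leukocyte peptidase inhibitor gene (65.7, chr20:43882848-43883269), and SCGB1D2, a secretoglobin (15.4). Both starts were CpG-poor, with a CpG observed/expected ratio of 0.12 and 0.11.

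Of 116 signalling ligands and receptors of the WNT, BMP, FGF and NOTCH families, 4 had unmarked-gene peaks (3.45%). INHBB encodes the beta B subunit of activin and inhibin, hormones of the ovary, and its peak of 3657 bp (chr2:121101317-121104973, −log10 q 50.8) was the second widest member. INHBE, a further activin subunit gene, had 43.3, DKK4 9.61 and WNT10B 8.86. WNT11 had a wide other-start peak (3432 bp, 49.2) in the densely covered window of chromosome 11 described above. PRLR, the prolactin receptor gene, was the only one of 26 hormone receptor and target genes in the set (22.1), and ESRRG and RORB were the 2 of 38 nuclear receptors.

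Some groups had no or few unmarked-gene peaks. Protocadherins had 0 of 63 (upper bound 5.69%), where COLO-205 had 16 and DU-145 7. Leukocyte and endothelial markers had 0 of 28 (upper bound 12.3%), and the single gene of 26 stromal and mesenchymal markers was TCF4. Olfactory receptors had 1 of 359, OR4N2. Cytosolic ribosomal protein genes had 0 of 56 (upper bound 6.38%) although 4 carried members (7.14%, beside 11.2% of all genes). These 4 were RPS12 (52.0), RPL23 (41.0), RPS3 (18.0) and RPL31 (15.6), and all were flanked-start peaks at starts that another line marked. Cyclins, CDKs and their inhibitors had 0 of 26 (upper bound 13.2%) with 5 carrying members (19.2%, beside 11.2% of all genes). Germline and cancer-testis genes had 0 of 48 (upper bound 7.40%) with 5 carrying members (10.4%). PRAME, a cancer-testis antigen gene, led the germline and cancer-testis group with a flanked-start peak at 63.2, 626 bp from a DU-145 peak. The upper bounds given here all lay above the 3.50% of all genes. Interferon response genes (2 of 49), collagens, laminins and integrins (3 of 72), SOX, forkhead, GATA and T-box factors (3 of 75), SLC transporters (10 of 299) and C2H2 zinc finger genes (8 of 298) lay between 2.68% and 4.17%, near the share of all genes.

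Other-start peaks showed genes that another line marked at a different start. GDPD5 led them at 138 (chr11:75201141-75202399), in the densely covered window, where its gene held 6 members and COLO-205 and DU-145 marked other starts at 7.26 and 11.7. SSPN, the sarcospan gene (128, chr12:26348145-26349261), MEIS1 (123), NCS1, a neuronal calcium sensor (89.8), and C2orf68 (76.8) followed. The last of these peaks also lies within 1 kb of a USP39 start, and no C2orf68 start was marked in another line, so it is in this set through USP39. Among flanked-start peaks the strongest were at TRAF7, a ubiquitin ligase gene (102), ST6GALNAC1, a sialyltransferase gene (92.3), PEMT, which makes phosphatidylcholine (87.8), RHEX (83.2) and PRMT3, an arginine methyltransferase gene (82.6). Each of these 5 lay 192 to 565 bp from the nearest peak of another line. Of all genes with members, 1384 held 1, 321 held 2 and 125 held 3 or more. DENND2B held the most, 10, over 36 annotated starts. Members of one gene share its starts and are not independent.

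The base composition of the starts, which the rule did not use, differed between the sets. A start was called CpG-rich when the bases within 250 bp of it were over 50% G and C and had a CpG observed/expected ratio over 0.6. Of 2070 distinct starts nearest to members, 51.5% were CpG-rich (interval 49.4 to 53.7), against 95.3% of 3814 starts at peaks with an overlap in all 3 lists and 56.6% of all starts. The member share rose above that of all starts with a −log10 q of at least 10 in every list (66.7%) and where each list kept only its strongest peaks at equal length (79.2%). Unmarked-gene peaks had 58.1% of 661 starts (interval 54.2 to 61.9), flanked-start peaks 62.4% of 960 (interval 59.2 to 65.5) and other-start peaks 18.7% of 450 (interval 15.2 to 22.6). Other-start peaks thus lay mainly at CpG-poor starts. Among them, 129 of 561 peaks were nearest to a start that the annotation flags as incomplete, against 40 of 761 unmarked-gene peaks. The share among unmarked-gene peaks of COLO-205 was 49.6%, and of DU-145 67.2%, on either side of OVCAR-3.

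**Figure D5:**
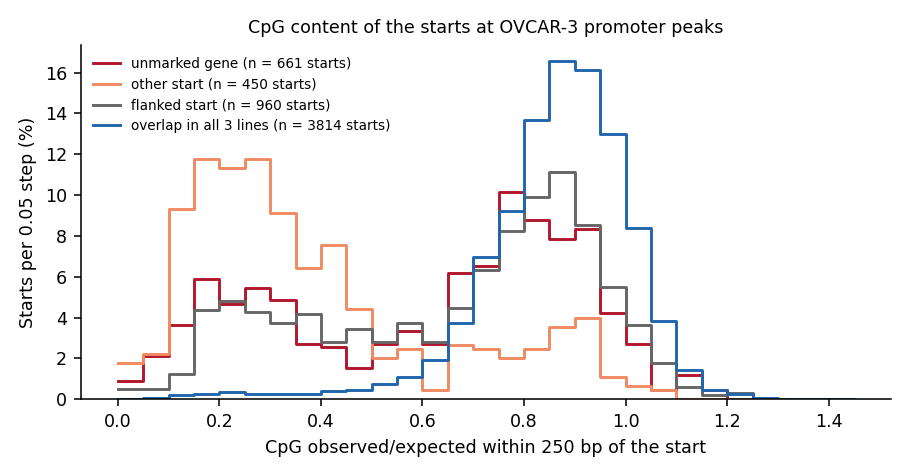
Distribution of the CpG observed/expected ratio within 250 bp of the starts nearest to OVCAR-3 promoter peaks (x axis, steps of 0.05), as the percent of starts in each step (y axis). Unmarked-gene peaks (red) and flanked-start peaks (grey) have both a low and a high mode, other-start peaks (orange) lie mostly low, and peaks with an overlap in all 3 lists (blue) lie high, with 95.3% of starts CpG-rich.

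Motif letters were counted on both strands in the 300 bp centred on each start, beside the share of all 64873 starts. The GC box (GGGCGG) was found at 53.4% of unmarked-gene, 26.2% of other-start and 58.2% of flanked-start starts, at 79.9% of starts with an overlap in all 3 lists and at 51.0% of all starts. The NRF1 letters were found at 3.18% of unmarked-gene starts, 9.41% of fully shared starts and 5.78% of all starts. The ETS letters (CCGGAAGT) were found at 3.48%, 7.50% and 4.62%, and the YY1 letters (AAGATGGC) at 3.78%, 6.29% and 3.47%. These 4 motifs of broadly active promoters were all less frequent at unmarked-gene than at fully shared starts. The reverse held for the TATA box (TATAAA), at 6.96%, 2.46% and 8.43%, and for the ZEB1 letters (CAGGTG), at 28.4%, 17.3% and 23.6%. AP-1 letters (TGANTCA) stood at 5.45%, 3.36% and 5.55%, with 9.56% at other-start peaks, and TEAD letters (GGAATG) at 8.77%, 7.52% and 11.7%, with 16.7%. CpG-rich and CpG-poor starts mix in these shares. At CpG-poor starts alone, AP-1 letters were found at 10.8% of unmarked-gene, 16.2% of fully shared and 9.53% of all starts, and the intervals of the first 2 overlapped (7.43 to 15.1 and 11.1 to 22.4). TEAD letters were found at 13.0% of unmarked-gene (interval 9.27 to 17.5) and 17.9% of fully shared starts (12.6 to 24.3), and the CCAAT box at 29.6% (24.3 to 35.4) and 32.4% (25.6 to 39.8). For these 3 motifs the 2 kinds of CpG-poor start could not be ordered beyond counting error. The GC box was found at 23.8% of unmarked-gene (18.9 to 29.3) and 48.0% of fully shared CpG-poor starts (40.5 to 55.6). ZEB1 letters were found at 33.6% (28.0 to 39.5) and 20.7% (15.0 to 27.3). For the GC box and the ZEB1 letters these intervals did not overlap.

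The remaining motifs were the CCAAT box at 27.5% of unmarked-gene and 25.4% of fully shared starts, the E-box (CACGTG) at 7.26% and 8.94%, the GATA-factor letters (AGATAA) at 4.84% and 2.20%, and the CRE (TGACGTCA) at 1.97% and 2.20%. Forkhead (TGTTTAC) stood at 2.57% and 1.21%, homeobox (TAATTA) at 1.66% and 0.446%, EGR1 (GCGTGGGCG) at 0.756% and 1.26% and the CTCF core at 0.303% and 0.105%. The estrogen response element was found at 0 of the 2070 member starts and at 0.0308% of all starts. None of these matches was tested as a binding site. EGR1 and FOS, factors that the study treated as regulators in OVCAR-3, had peaks at their own starts in all 4 lines and held no member. At the FOS promoter peak with the highest −log10 q in each line, fold enrichment was 18.96 in OVCAR-3 and 5.38 to 8.31 elsewhere. At EGR1 the same measure was 9.11 and 5.40 to 11.2. ZEB1, marked in all 4 lines, reached a −log10 q of 9.96 in OVCAR-3, 12.7 in COLO-205, 27.6 in DU-145 and 34.0 in SKOV-3.

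OVCAR-3-only peaks away from starts were also counted within 50 kb of each start. The median was 1 at unmarked-gene starts, 5 at other-start starts, 2 at flanked-start starts and 1 at fully shared starts. Outside windows at least 10% covered, the medians were 1, 3, 2 and 0. At 35.1% of unmarked-gene starts and 48.7% of fully shared starts there was none. Other-start starts had the most line-only distal peaks around them.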

How the data were processed

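H3K27ac ChIP-seq peak lists of 4 cell lines were analysed, with 1 library per line. Reads were aligned by the authors to hg19 with version 2.1.0 of Bowtie2, and MACS2 (2.1.0.20150603) called narrow peaks in each library separately, and which control was used for a list is not given in the sources used here. The deposited score is 10 times the −log10 q. The deposited fold enrichment is the ratio of summit tags to local background within a library, with 1 added to each. The deposited −log10 p and −log10 q are the peak caller's own, so none of these values is scaled between libraries. The stated merging of close peaks is not applied in the lists and was an alternative here.

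Starts came from GENCODE release 44 lifted to GRCh37, a later release than the authors used. No peak ran past a chromosome end of that assembly. The tag number at a summit and its background were solved for the integer pileup matching the deposited fold and −log10 p to 0.001, and depth from the lowest background and 2700000000 genome positions. The recovery was tested on simulated data, and a lowest background of 1 was required after a first run gave false solutions. Intervals are exact Clopper-Pearson. Motif and CpG counts read the GRCh37 sequence. Named genes are the 25 strongest unmarked-gene peaks, up to 5 per gene group, the 5 strongest of each other set, the 5 widest, those at the limits of the rule, EGR1, FOS and ZEB1, and genes with 3 or more members. Further group members were named to complete counts after their values were seen. The members, groups and markers were chosen with earlier results of these data known. The 10% density limit and the choice of printed sequences were set after the values were seen. Some genes and sequences are not reported here. No test was run, since lines have no replicates and the rule used the overlaps. Scripts used pysam 0.24.0, scipy 1.17.1, pandas 2.3.3 and Python 3.11.15.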

Additional observations from a re-analysis of the deposited data

How the results depend on the processing

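Absence from a list depended on that list's length and strength, and the depth differences between libraries were not corrected. No paired analysis was possible because there was 1 library per line and no result came from a test. The 5 quantities followed were the members (2333), their genes (1830), the member share of OVCAR-3 promoter peaks (16.6%), the share of members at genes unmarked in the other lines (32.6%) and the CpG-rich share (51.5%). Given in this order are shares that moved by more than counting error and counts that moved by over 1.5 times. Smaller moves put the members between 1560 (summits within 500 bp) and 2884 (50% covered), and the genes between 1271 (merged peaks) and 2467 (summits within 2 kb).

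With the same number of strongest peaks in every list there were 951 members at 963 genes, with shares of 14.8%, 66.5% and 79.2%. With a −log10 q of at least 10 in every list the 3 shares were 19.6%, 49.0% and 66.7%, and with at least 5 the unmarked-gene share was 34.6%. Merging peaks less than 350 bp apart left 1422 members, with shares of 13.6%, 43.7% and 46.2%, and widening the other lines' peaks by 350 bp gave 12.3%, 43.6% and 45.8%. Counting a peak as shared only when 50% of it was covered gave 20.5%, 26.4% and 55.4%. Summits within 500 bp of a start gave 13.0%, 37.9% and 55.4%, and summits within 2 kb gave 3667 members, with 22.1% and 26.4%. Without the SKOV-3 list the member share was 17.3%.

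Of the alternatives chosen after seeing the data, leaving out windows at least 10% covered gave 14.8%, 34.9% and 55.7%, leaving out incomplete starts 15.4%, 35.4% and 55.7%, and leaving out chromosome 7 changed none of the 5 quantities beyond these limits. The unmarked-gene share and the CpG-rich share therefore rest on how strictly peaks are called and joined. The cause was not tested.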
